A study of Mus musculus with 4 samples.

Results

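The genes described here encode the core transcription machinery: the subunits of RNA polymerases I, II and III, the Mediator complex, the TBP-associated factors (TAFs) and the general initiation factors. They were chosen by symbol, as every row of the deposited expression table whose symbol begins with Polr1, Polr2 or Polr3, with Med or Taf followed by a digit, or with Gtf2. Taf1d and Taf7l were left out. This gave 73 genes of 22883 rows, 1 row for each symbol. Polr2b, Polr2c, Polr2m, Polr3gl, Med9, Med12l, Med19, Med21, Med26, Med31, Taf1c, Taf3, Taf4b, Taf5, Taf6, Taf6l, Taf9, Taf10, Gtf2b, Gtf2e2 and Gtf2f2 were not analysed here.

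RNA polymerase I makes the ribosomal RNA precursor, RNA polymerase II makes messenger RNA and many noncoding RNAs, and RNA polymerase III makes transfer RNA, 5S ribosomal RNA and other small RNAs. The enzymes have their own catalytic subunits and share a set of small ones. At a polymerase II promoter TFIID, which holds TBP and the TAFs, joins TFIIA, TFIIB, TFIIE, TFIIF and TFIIH, and Mediator carries signals from activators to the polymerase.

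The samples were mouse embryonic stem cells of the V6.5 line with a conditional knockout of Exosc3, which encodes part of the RNA exosome core, the complex that trims and degrades RNA from its 3′ end. The conditional knockout clones, grown without feeder cells, stayed on doxycycline at 0.1 µg/ml (Exosc3-present, dox+, 2 libraries) or were taken off it for 3 days (Exosc3-depleted, dox-, 2 libraries). All 4 libraries carry the Exosc3 CKO genotype, so no library without the conditional allele was compared, and doxycycline and Exosc3 change together and cannot be told apart. The labels do not say whether the replicates were separate cultures or clones, so p-values measure only the spread between these libraries, which may be technical. In bulk RNA, fewer cells of a type and less RNA per cell cannot be told apart.

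Exosc3 stood at 24.2 and 23.2 FPKM (fragments divided by gene model length and by library total) in the Exosc3-present libraries and at 0.635 and 0.691 in the Exosc3-depleted ones. The per-million totals recovered from the table ran from 38095698 fragments (Exosc3-depleted 1) to 60851774 (Exosc3-present 1). Of the embryonic stem cell markers with a row, Zfp42, Esrrb and Klf2 fell and Pou5f1 was at 471 and 434 FPKM in the Exosc3-present and at 413 and 286 in the Exosc3-depleted libraries (adjusted p = 0.167). Trophectoderm markers rose in 6 of 6 tested, their summed level going from 25.7 and 27.9 FPKM to 145 and 110 (9 rows). Hand1, at 0.0346 and 0.0477 FPKM in the present libraries, passed the filter (a mean of at least 0.5 FPKM) only through its depleted values. Its rise was therefore partly set by the filter. Primitive endoderm markers rose in 7 of 8 tested, from a summed 61.2 and 74.4 FPKM to 175 and 173 (9 rows). Gata6, Sox17 and Pdgfra, at 0.185 to 0.458 FPKM in the present libraries, also passed the filter only through their depleted values. Among all 9336 tested rows 12.6% were called higher and 30.1% lower at an adjusted p under 0.05. The trophectoderm factors Cdx2, Gata3 and Elf5 were low in all 4 libraries and lay under the filter. Cdx2 had 0.0230 and 0.0169 FPKM in the present and 0.245 and 0.156 FPKM in the depleted libraries. Gata3 had 0 and 0.00563 FPKM and then 0.0980 and 0.126 FPKM. Elf5 had 0.0371 and 0.0163 FPKM and was listed at 0 in the depleted libraries. Fibroblast markers summed to 6.48 and 7.24 FPKM in the Exosc3-present and to 11.9 and 8.88 FPKM in the depleted libraries (7 rows), with Postn listed at 0 in all 4. Of the 4 tested, Twist1 (5.04-fold) and Mmp2 (2.11-fold) rose, Thy1 fell (12.5-fold) and Col1a1 did not pass. Twist1 and Col1a1 were tested only through their depleted values, and Thy1 only through its present ones. The part of these other cell type markers in the results below was not tested.

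Sequence upstream of an annotated start is shown for 6 genes, so that it can be seen beside the values of genes that fell and of the 1 that rose. Gtf2h5, Taf5l, Polr2h and Gtf2a2 were lower under every scaling of the table, Med22 was higher under every scaling, and Polr3g had the largest fall among the polymerase III subunits. Sequences and start sites are from RefSeq (GRCm38.p6), which differs from the mm9 build of the expression table. Each stretch lies upstream of an annotated start, holds no exon of GENCODE M21 on either strand and is written 5′ to 3′ on the gene's strand. Capitals mark GC boxes (GGGCGG or its reverse complement CCGCCC) and ETS motifs (CCGGAAG or its reverse complement CTTCCGG).
Gtf2h5: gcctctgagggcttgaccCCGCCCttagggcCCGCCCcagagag
Taf5l: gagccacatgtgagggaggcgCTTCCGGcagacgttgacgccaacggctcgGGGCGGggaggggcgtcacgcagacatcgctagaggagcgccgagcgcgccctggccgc
Polr2h: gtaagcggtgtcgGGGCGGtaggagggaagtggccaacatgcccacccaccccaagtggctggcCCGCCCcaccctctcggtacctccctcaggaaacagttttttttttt
Gtf2a2: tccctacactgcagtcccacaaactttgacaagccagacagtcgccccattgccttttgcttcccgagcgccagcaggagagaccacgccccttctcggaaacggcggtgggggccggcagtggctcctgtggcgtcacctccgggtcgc
Polr3g: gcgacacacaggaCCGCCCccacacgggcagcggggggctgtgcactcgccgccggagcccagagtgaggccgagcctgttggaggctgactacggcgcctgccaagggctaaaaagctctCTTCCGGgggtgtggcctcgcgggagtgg
Med22: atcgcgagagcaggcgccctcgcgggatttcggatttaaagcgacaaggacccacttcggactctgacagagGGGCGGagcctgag
The Gtf2h5 stretch covers bases 86 to 43 before the first start, chr17:6079742-6079785 on the plus strand. The Taf5l stretch covers bases 110 to 1 before the first annotated start, chr8:124021398-124021507 on the minus strand, inside the span of the gene model Gm20388. Taf5l has a second annotated start, which is not shown. The Polr2h stretch covers bases 182 to 72 before the second annotated start, chr16:20717995-20718105 on the plus strand, and lies in an intron of Polr2h itself. Before the first Polr2h start no stretch free of exons was found (exons of Clcn2 and Polr2h), so none is shown. The Gtf2a2 stretch covers bases 150 to 1, chr9:70012398-70012547 on the plus strand. The Polr3g stretch covers bases 150 to 1, chr13:81711014-81711163 on the minus strand. The Med22 stretch covers bases 121 to 36, chr2:26910678-26910763 on the minus strand. None of the motifs named below was found in the Gtf2a2 stretch.

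Over the full windows (250 bases before to 50 after a start, both strands searched), 62 of the 73 genes had RefSeq entries, with 73 windows. The ETS motif CCGGAAG was found in 37.0% of these windows, against 17.9% of the windows of all tested genes and 8.86% of all windows. The E-box CACGTG was found in 20.5%, against 10.9% and 7.15%. The GC box GGGCGG was found in 63.0%, against 66.1% and 35.7%, and the TATA box letters TATAAA in 11.0%, against 6.64% and 13.6%. CCAAT was found in 31.5%, against 37.8% and 37.4%. Among the machinery genes CCAAT was in 13.6% of the 22 windows of genes called lower and in 42.6% of the 47 windows of genes not called, while the ETS motif was in 36.4% and 40.4%. Neither difference was tested. AAGATGGC, the YY1 letters, was found in 5.48%, against 4.38% and 2.75%. The NRF1 motif, searched as its core palindrome, occurred in none of these windows, against 2.18% and 0.971%. Motif letters are a description of the sequence, not a measurement of binding.

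Across the whole set, 71 of the 73 genes passed the filter of a mean of at least 0.5 FPKM and were tested on log2(FPKM + 0.5) with limma. Gtf2a1l, a testis-type TFIIA relative, and Taf9b, a TAF paralogue, lay under the filter. Of the tested genes 21 were lower in the Exosc3-depleted cells (29.6%), 1 was higher (1.41%) and 49 did not pass an adjusted p of 0.05. Over all 9336 tested rows 30.1% were called lower and 12.6% higher, so the share called lower was near the background. Among the 71 tested genes, 40 were lower and 5 higher with no overlap between the levels of the 2 groups. Among all 9336 tested rows, 4754 (50.9%) were lower and 2075 (22.2%) higher in this way. The median log2 fold change of the set was -0.36, and that of all tested rows -0.27.

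How many of the calls pointed up depended on the scaling of the libraries, since the median tested row itself moved. As deposited, 4.55% of the called machinery genes were higher. After median-of-ratios scaling, which brings the median row to 0.01, 5 were lower and 4 higher (44.4% higher), after quantile normalization 6 and 3 (33.3%), and after scaling without the 50 highest rows 5 and 2 (28.6%). The calls over all 9336 tested rows moved the same way. As deposited 2806 rows were lower and 1177 higher, and under the 3 scalings 1589 and 1756, 1782 and 1578, and 1330 and 1544. Every machinery gene called lower under those 3 scalings was among the 21 called lower in the deposited values. The scalings moved the median row up, from -0.27 to 0.01, -0.05 and 0.03. Such a shift tends to remove calls lower and seldom adds any, so this overlap is no independent check. Fold changes relative to the median tested row are therefore given beside the complexes.

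**Figure D1:**
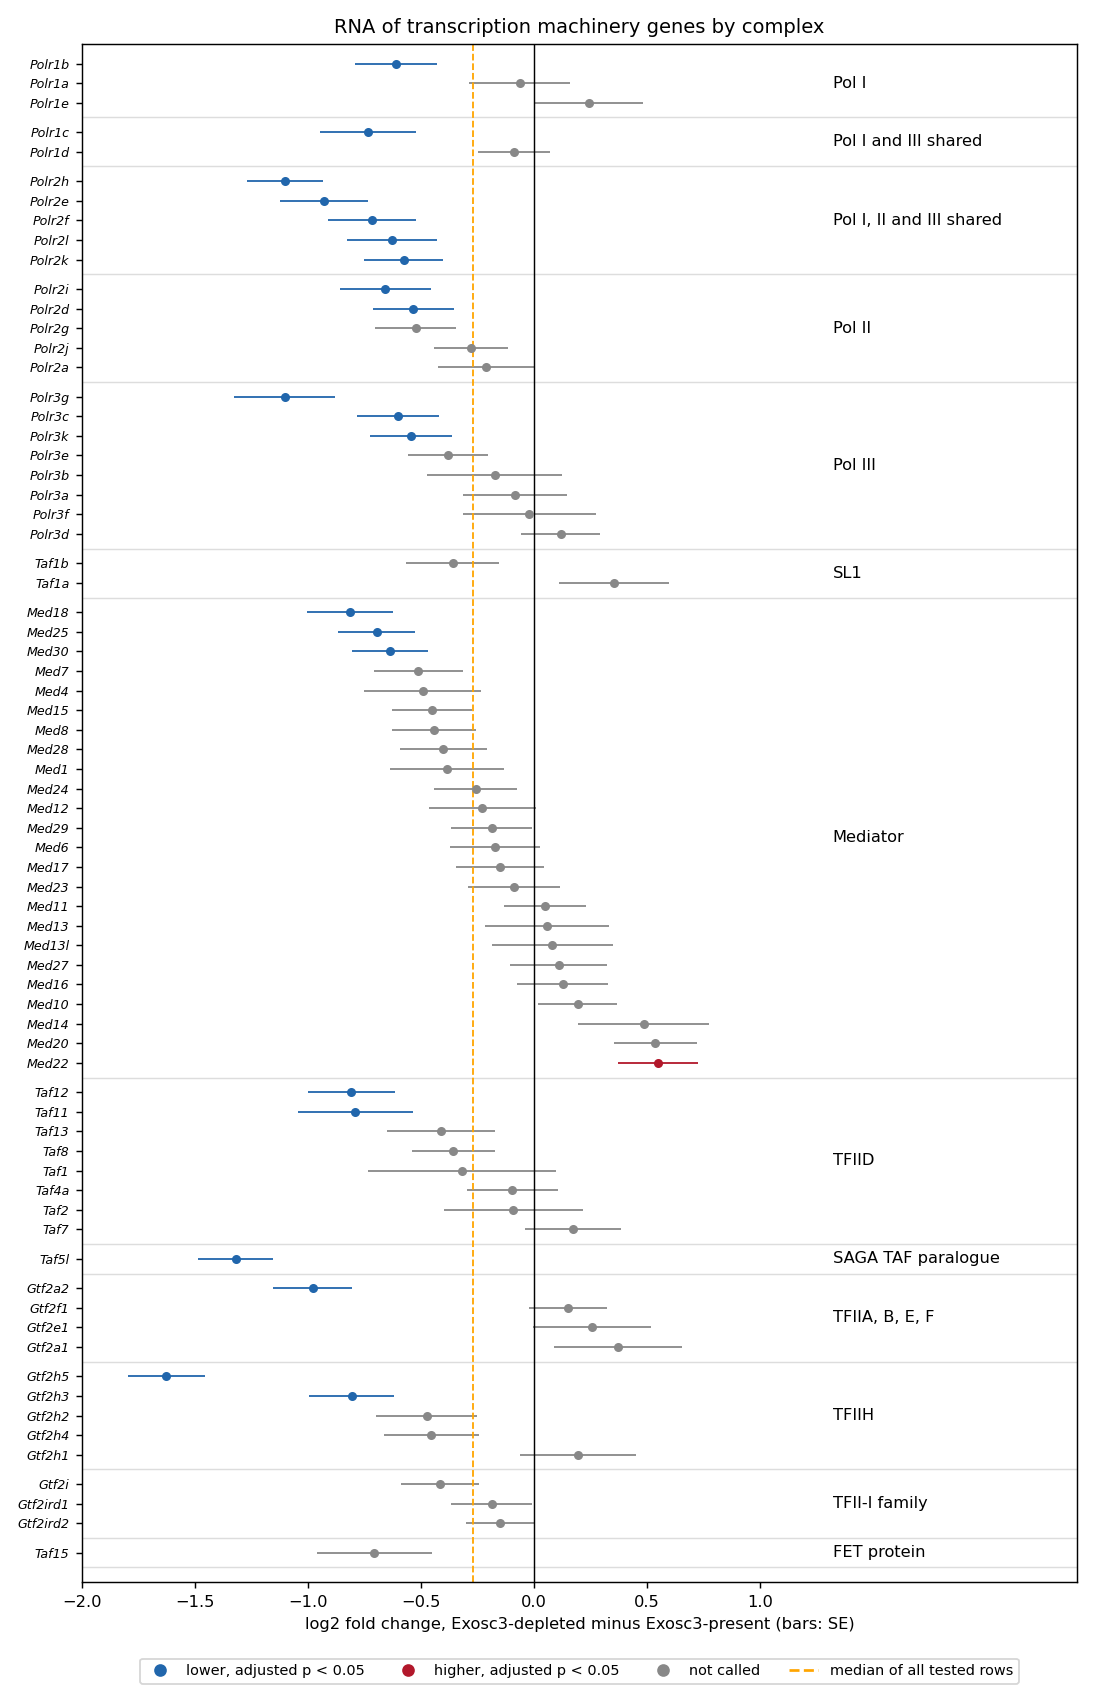
Log2 fold change (Exosc3-depleted minus Exosc3-present, on log2(FPKM + 0.5)) of each of the 71 tested genes, grouped by complex, with standard errors as bars. The dashed line is the median of all tested rows at -0.27; the 5 subunits shared by all 3 polymerases lie to its left, and Mediator spreads on both sides of it.

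The small subunits that all 3 polymerases share fell together. All 5 with a row (Polr2e, Polr2f, Polr2h, Polr2k and Polr2l) were called lower, against 30.1% of all tested rows. Their summed level went from 426 and 411 FPKM in the Exosc3-present libraries to 264 and 201 FPKM in the depleted ones. Their median log2 fold change was -0.72, or -0.45 relative to the median tested row. The relative value was -0.41, -0.28 and -0.40 under the median-of-ratios, quantile and without-50-highest scalings, under which 1, 2 and 2 of the 5 were called lower and none higher.

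Polr2h, a subunit that contacts the catalytic core, was at 65.7 and 64.4 FPKM in the Exosc3-present and at 32.4 and 27.9 FPKM in the depleted libraries. Both depleted libraries lay far under both present ones, a 2.16-fold lower mean (log2 fold change -1.10, SE 0.17, adjusted p = 0.00275). Its annotated exons overlap those of Clcn2 on the opposite strand over 82 bases. Polr2e, the most abundant of the 73 genes, was at 190.3 and 189 FPKM and at 116 and 84.8 FPKM. The groups did not overlap although the depleted libraries differed from each other by much more than the present ones, and the mean was 1.89-fold lower (log2 fold change -0.93, SE 0.19, adjusted p = 0.00884).

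Polr2f was at 132 and 119 FPKM with Exosc3 and at 87.8 and 66.0 FPKM without it (adjusted p = 0.0232). The length of its gene model, as recovered from the table, is only 130 bases, and its exons overlap 1700088E04Rik on the opposite strand. Polr2l was at 26.9 and 27.9 FPKM and then at 20.3 and 15.1 FPKM (adjusted p = 0.0394), and Polr2k was at 10.3 and 11.3 FPKM and then at 7.22 and 6.90 FPKM (adjusted p = 0.0353). In each of these the higher depleted library stayed below the lower present one. The falls of Polr2f, Polr2k and Polr2l were -0.72, -0.58 and -0.63 on the log2 scale as deposited and between -0.25 and -0.40 under the other 3 scalings, where none of them passed.

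**Figure D2:**
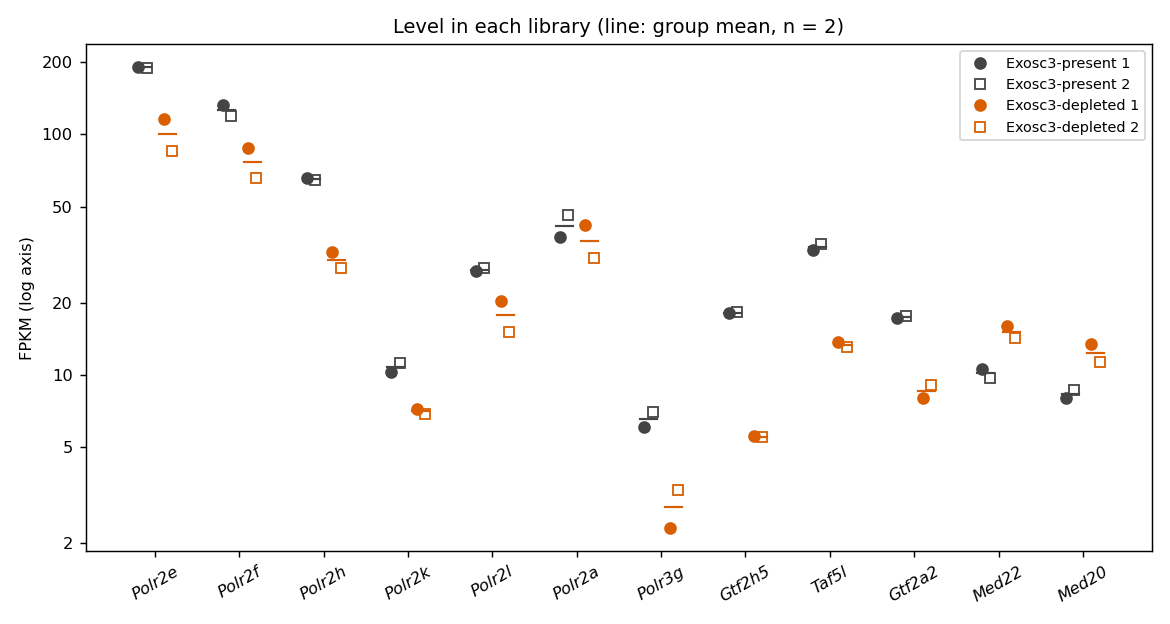
FPKM of 12 of the genes in each library on a log axis, with circles for replicate 1, squares for replicate 2, grey for Exosc3-present, orange for Exosc3-depleted and a line at each group mean (n = 2). Gtf2h5, Taf5l and Polr2h show close replicates and a wide gap between groups, whereas the levels of Polr2a overlap.

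Of the polymerase II-specific subunits, 2 of 5 tested were called lower (40%) and none higher, against 30.1% and 12.6% of all tested rows. The median log2 fold change was -0.52 (-0.26 relative to the median row). Polr2i, a small subunit involved in transcription fidelity, was at 70.7 and 82.0 FPKM in the present and at 55.9 and 41.4 FPKM in the depleted libraries (log2 fold change -0.66, SE 0.20, adjusted p = 0.0363). Its exons overlap Tbcb on the opposite strand. Polr2d, which forms the polymerase stalk with Polr2g, was at 15.7 and 15.9 FPKM and then at 9.93 and 11.6 FPKM (log2 fold change -0.53, SE 0.18, adjusted p = 0.0475). In both, every depleted library was below every present one.

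Polr2g, the other stalk subunit, had 51.7 and 41.9 FPKM in the present and 32.8 and 31.7 FPKM in the depleted libraries (log2 fold change -0.52, SE 0.18, adjusted p = 0.0509). Its groups did not overlap, but it did not pass. Polr2a, the largest catalytic subunit, had 37.4 and 46.1 FPKM with Exosc3 and 41.8 and 30.6 FPKM without it. Those levels overlap, with a log2 fold change of -0.21 (SE 0.21, adjusted p = 0.455) whose sign turned positive under each of the other 3 scalings (0.10 to 0.17).

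Among the 3 polymerase I subunits with a row under a Polr1 symbol (others, under older symbols, are with the partner genes below), Polr1b, the second largest and part of the active site, fell. It was at 33.7 and 40.2 FPKM with Exosc3 and at 22.3 and 25.7 FPKM without it, with no overlap (log2 fold change -0.61, SE 0.18, adjusted p = 0.0330). The largest subunit Polr1a had 10.5 and 13.3 FPKM and then 9.59 and 13.3 FPKM (log2 fold change -0.06, SE 0.23, adjusted p = 0.837), and Polr1e, part of a subcomplex that acts in initiation and elongation, had 6.18 and 6.56 FPKM and then 6.10 and 9.50 FPKM (adjusted p = 0.447). In both, the levels of the groups overlapped.

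Polr1c and Polr1d form the assembly platform that polymerases I and III share. Polr1c fell, from 108 and 97.0 FPKM to 73.4 and 51.3 FPKM (log2 fold change -0.74, SE 0.21, adjusted p = 0.0288). Polr1d had 46.5 and 44.7 FPKM and then 42.9 and 42.7 FPKM (log2 fold change -0.09, SE 0.16, adjusted p = 0.678). The Polr1c call rests on the deposited scaling: with the other 3 scalings its log2 fold change was between -0.42 and -0.32 and did not pass.

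RNA polymerase III subunits divided between a few that fell and a larger number that did not pass. Of 8 tested, 3 were called lower (37.5%) and none higher, against 30.1% and 12.6% of all tested rows. The median log2 fold change was -0.28, close to that of all tested rows (-0.01 relative to it). Polr3g, the form of its subunit that is known to be abundant in pluripotent cells, was at 6.10 and 7.05 FPKM with Exosc3 and at 2.31 and 3.34 FPKM without it. Every depleted value was under both present values, a 2.33-fold lower mean (log2 fold change -1.10, SE 0.22, adjusted p = 0.00774). Without Exosc3-present 2 (adjusted p = 0.0916), or with scaling that left out the 50 highest rows (adjusted p = 0.0567), it did not pass.

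Polr3c, which belongs to the same initiation subcomplex as Polr3g and Polr3f, was at 14.1 and 14.3 FPKM and then at 8.43 and 10.04 FPKM (log2 fold change -0.60, SE 0.18, adjusted p = 0.0343). Polr3f, the other subunit of that subcomplex with a row, had 1.04 and 0.914 FPKM and then 0.555 and 1.51 FPKM, so its depleted libraries lay on either side of the present ones (adjusted p = 0.959). Polr3k, which acts in transcript cleavage at termination, was at 2.80 and 2.51 FPKM and then at 1.73 and 1.59 FPKM (log2 fold change -0.54, SE 0.18, adjusted p = 0.0463).

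The catalytic pair did not pass. Polr3a had 10.9 and 13.1 FPKM with Exosc3 and 9.28 and 13.6 FPKM without it (adjusted p = 0.791), and Polr3b had 10.9 and 12.2 FPKM and then 7.29 and 14.1 FPKM (adjusted p = 0.664). In both genes depleted library 1 was the lowest of the 4 and depleted library 2 the highest. Polr3d and Polr3e, which pair with each other in the enzyme, had log2 fold changes of 0.12 (adjusted p = 0.62) and -0.38 (adjusted p = 0.126). Polr3d kept a positive fold change in each of the 18 alternatives without passing in any.

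In Mediator, most subunits did not pass. Of 24 tested, 3 were called lower, 1 higher and 20 neither (12.5% and 4.17%, against 30.1% and 12.6% of all tested rows). The median log2 fold change was -0.18, or 0.09 above the median tested row. The relative median stayed above 0 under the other scalings (0.11 to 0.17) but was -0.14 with no filter on low rows. Under the median-of-ratios, quantile and without-50-highest scalings none of the 24 was called lower, and 3, 2 and 2 were called higher. Over all 9336 tested rows 1589, 1782 and 1330 were called lower under them, and 1756, 1578 and 1544 higher. Summed over the complex the level was 235 and 243 FPKM with Exosc3 and 212 and 216 FPKM without it.

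The Mediator head, the module that contacts polymerase II, held genes of both directions. Med18 was at 10.4 and 9.28 FPKM in the present and at 4.88 and 5.88 FPKM in the depleted libraries, a 1.83-fold lower mean with no overlap (log2 fold change -0.82, SE 0.19, adjusted p = 0.0139). Med22, also a head subunit, was at 10.6 and 9.72 FPKM and then at 15.9 and 14.3 FPKM, a 1.49-fold higher mean (log2 fold change 0.55, SE 0.18, adjusted p = 0.0424). Both depleted libraries lay above both present ones, and Med22 was the only machinery gene called higher in the deposited values.

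Med20, which forms a movable pair with Med18 in the head, was at 8.06 and 8.65 FPKM with Exosc3 and at 13.5 and 11.3 FPKM without it. Its groups did not overlap, and its log2 fold change of 0.54 (SE 0.18) just missed the threshold (adjusted p = 0.0533). It passed under each of the other 3 scalings, at log2 fold changes of 0.82 to 0.86 with adjusted p-values of 0.0136 to 0.0153. Exons of Med20 overlap Gm20517 on the same strand and Kpna2-ps on the opposite one, so fragments of these loci may be shared. The other head subunits with a row, Med6, Med8, Med11 and Med17, had log2 fold changes from -0.44 to 0.05 and did not pass.

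In the tail, which meets activators, Med25 fell from 23.9 and 25.02 FPKM to 15.8 and 14.1 FPKM (log2 fold change -0.70, SE 0.17, adjusted p = 0.0165). Med24, the most abundant Mediator subunit by mean FPKM, had 24.4 and 27.1 FPKM and then 23.6 and 19.4 FPKM (adjusted p = 0.294). Med27, Med28, Med29 and Med30 were grouped apart here. Of these 4, Med30 fell, from 16.8 and 17.0 FPKM to 10.9 and 10.4 FPKM (log2 fold change -0.64, SE 0.17, adjusted p = 0.0218). Among the 4 scalings, Med18, Med25 and Med30 passed only in the deposited one, and under the other 3 they kept a negative fold change without passing.

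None of the 4 middle subunits and none of the 3 kinase module subunits passed. Med14, the scaffold that joins head, middle and tail, had 1.77 and 1.79 FPKM with Exosc3 and 1.87 and 3.80 FPKM without it, so its log2 fold change of 0.48 (SE 0.29, adjusted p = 0.217) came with depleted libraries that lay far apart. It passed as higher after median-of-ratios scaling (adjusted p = 0.0410) and without depleted library 1. The depleted libraries also differed in the kinase module genes: Med12 had 2.99 and 4.47 FPKM in the depleted libraries, Med13 had 1.07 and 2.23, and Med13l had 6.50 and 11.2. All 3 overlapped the present libraries, and none passed under any of the 4 scalings.

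Of the TFIID subunits, 2 of 8 tested were called lower (25%) and none higher, against 30.1% and 12.6% of all tested rows. The median log2 fold change was -0.34 (-0.07 relative to the median row). Taf12, a histone-fold subunit that TFIID shares with the SAGA coactivator, was at 8.98 and 11.2 FPKM with Exosc3 and at 5.44 and 5.56 FPKM without it (log2 fold change -0.81, SE 0.19, adjusted p = 0.0145). Taf11, a histone-fold subunit that pairs with Taf13, was at 5.63 and 6.19 FPKM and then at 2.45 and 4.15 FPKM (log2 fold change -0.79, SE 0.25, adjusted p = 0.0417). Taf11 exons overlap those of Anks1 on the opposite strand. Its partner Taf13 had 2.61 and 3.65 FPKM and then 1.83 and 2.62 FPKM, so the higher depleted library just reached the lower present one (adjusted p = 0.202).

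Taf1, the largest TFIID subunit, had 3.33 and 3.39 FPKM in the present libraries and 1.40 and 4.54 FPKM in the depleted ones. The present libraries were almost equal, and the depleted ones lay below and above them (log2 fold change -0.32, SE 0.42, adjusted p = 0.569). Without depleted library 1 its log2 fold change was 0.39 (adjusted p = 0.0304) and without depleted library 2 it was -1.02 (adjusted p = 7.3e-05). Taf2 showed the same arrangement, with 4.77 and 5.14 FPKM and then 3.202 and 6.55 FPKM. Taf7, which binds Taf1, had 9.06 and 12.2 FPKM and then 10.9 and 13 FPKM (adjusted p = 0.551).

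Taf5l, the Taf5 paralogue that belongs to SAGA and not to TFIID, had one of the largest falls of the set. It was at 33.2 and 35.1 FPKM with Exosc3 and at 13.7 and 13.1 FPKM without it. The replicates were close in both groups and the mean was 2.56-fold lower (log2 fold change -1.32, SE 0.17, adjusted p = 0.00136). Under the other scalings the log2 fold change was -0.99 to -1.01 and still passed.

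The TAFs of SL1, the polymerase I promoter factor, did not pass, Taf1a with a log2 fold change of 0.35 (adjusted p = 0.283) and Taf1b with -0.36 (adjusted p = 0.200). Taf15, an RNA-binding protein of the FET family that was first found with TFIID, had 11.4 and 12.0 FPKM and then 5.35 and 9.01 FPKM. The groups did not overlap, and the log2 fold change of -0.71 (SE 0.26) did not pass (adjusted p = 0.0613).

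Of the TFIIH subunits, 2 of 5 tested were called lower (40%) and none higher, against 30.1% and 12.6% of all tested rows. The median log2 fold change was -0.48 (-0.21 relative to the median row). Gtf2h5, the smallest subunit, which stabilizes TFIIH and is needed for nucleotide excision repair, had the largest change of all 71 tested genes. It was at 18.16 and 18.20 FPKM with Exosc3 and at 5.58 and 5.51 FPKM without it, from 1294, 1177, 249 and 271 fragments. The replicates nearly coincided and the mean was 3.28-fold lower (log2 fold change -1.63, SE 0.17, adjusted p = 0.000756). Gtf2h3, a structural subunit of the core, was at 18.5 and 20.4 FPKM and then at 12.1 and 9.80 FPKM (log2 fold change -0.81, SE 0.19, adjusted p = 0.0135).

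The other TFIIH core subunits with a row did not pass. Gtf2h2 and Gtf2h4, which regulate the complex's helicases, had log2 fold changes of -0.48 (adjusted p = 0.129) and -0.46 (adjusted p = 0.123), both with groups that did not overlap. Gtf2h1 had 8.67 and 9.80 FPKM with Exosc3 and 8.25 and 13.6 FPKM without it (adjusted p = 0.571).

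Among TFIIA, TFIIE and TFIIF, only Gtf2a2 passed. Gtf2a2, the small TFIIA subunit that helps to hold TBP on DNA, was at 17.2 and 17.6 FPKM with Exosc3 and at 8.05 and 9.13 FPKM without it, a 2.03-fold lower mean (log2 fold change -0.98, SE 0.18, adjusted p = 0.00504). Gtf2a1, which encodes the large TFIIA chains, had 2.31 and 2.30 FPKM and then 2.23 and 4.33 FPKM (log2 fold change 0.37, SE 0.28, adjusted p = 0.327). Gtf2e1 of TFIIE had 8.43 and 7.91 FPKM and then 7.53 and 12.8 FPKM, and Gtf2f1 of TFIIF had 34.6 and 38.9 FPKM and then 38.0 and 43.6 FPKM. Both overlapped between groups.

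The TFII-I family, DNA-binding factors that carry a general-factor name, did not pass either. Gtf2i had 32.4 and 37.6 FPKM and then 25.6 and 26.4 FPKM (log2 fold change -0.42, SE 0.17, adjusted p = 0.0892). Gtf2ird1 had a log2 fold change of -0.19 (adjusted p = 0.434), and Gtf2ird2 stood at 0.419 to 0.632 FPKM in all libraries. Gtf2i and Gtf2ird2 are close relatives whose reads may not be fully separable. The log2 ratio of Gtf2i to Gtf2ird1 differed by -0.23 between the groups and that of Gtf2i to Gtf2ird2 by -0.27, in both cases with exact two-sided permutation p = 0.3333, the smallest that 2 against 2 libraries allow. The ratio of Med13 to Med13l differed by -0.02 (exact permutation p = 1).

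Genes of the same pathways whose symbols fall outside the rule were counted from partner lists; the shares of all tested rows called, 30.1% lower and 12.6% higher, hold for these counts too. Of the 4 polymerase I partners with a row, 3 were lower and none higher: Znrd1 and Twistnb, which are polymerase I subunits under older symbols, and Ubtf, which keeps ribosomal DNA open. Znrd1 was at 49.4 and 49.3 FPKM and then at 32.0 and 28.4 FPKM (adjusted p = 0.0142), and Twistnb was at 5.71 and 6.70 FPKM and then at 3.92 and 3.68 FPKM (adjusted p = 0.0319). Of 3 further TFIIH partners, Ccnh, the cyclin of its kinase, was lower (log2 fold change -0.68, adjusted p = 0.0287). Under each of the other 3 scalings, and without either present library, Znrd1, Twistnb, Ubtf and Ccnh did not pass (adjusted p from 0.0914 to 0.512). TBP and its regulators (3 tested) and the Mediator kinase partners (2 tested) had no call.

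Among the 7 polymerase II assembly factors and CTD enzymes tested, 3 were lower and 1 higher. Rpap1, an assembly factor, was at 31.8 and 32.8 FPKM with Exosc3 and at 16.6 and 15.8 FPKM without it (log2 fold change -0.98, SE 0.16, adjusted p = 0.00399). Gpn1, a GTPase of polymerase import, was at 36.4 and 36.8 FPKM and then at 21.3 and 23.1 FPKM (adjusted p = 0.0132), and Rpap3 also fell (log2 fold change -0.81, adjusted p = 0.0334). Gpn1 and Rpap3 did not pass under the other 3 scalings or without either present library, and Rpap1 passed under all 4 scalings but not without Exosc3-present 1 (adjusted p = 0.0513) or 2 (adjusted p = 0.0694). Gpn3, the partner GTPase of Gpn1, rose, from 20.8 and 21.7 FPKM to 67.3 and 56.7 FPKM, a 2.92-fold higher mean (log2 fold change 1.52, SE 0.17, adjusted p = 0.000986). Its exons overlap those of Fam216a on the opposite strand over 482 bases.

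Among 15 polymerase III partners tested, 1 was lower and 1 higher, both of them TFIIIC subunits. Gtf3c1, the largest one, was at 21.4 and 24.1 FPKM and then at 46.1 and 47.7 FPKM, a 2.06-fold higher mean (log2 fold change 1.03, SE 0.17, adjusted p = 0.00347). Gtf3c4 was at 5.50 and 7.15 FPKM and then at 2.17 and 3.86 FPKM (log2 fold change -0.99, SE 0.28, adjusted p = 0.0264). Gtf3c1 did not pass without Exosc3-present 1 (adjusted p = 0.0526), and Gtf3c4 did not pass without Exosc3-present 2 (adjusted p = 0.192) or when scaled without the 50 highest rows (adjusted p = 0.158). The remaining 13, among them Bdp1, Brf2, Maf1 and 5 Snapc genes, did not pass.

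The depleted libraries differed from each other more than the present ones did, and in these genes the gap followed the length of the gene model. The SD of the log2 difference between replicates over all tested rows was 0.43 in the Exosc3-depleted and 0.19 in the Exosc3-present pair. In the 34 machinery genes with a model above 2494 bases, the median length of all tested rows, depleted library 2 exceeded library 1 by a median of 0.33 on the log2 scale. In the 37 shorter ones the median gap was -0.02. All tested rows gave 0.32 and -0.08.

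Across the 71 genes the gap between the depleted libraries had a Pearson r of 0.49 and a Spearman rho of 0.47 with log2 model length, against 0.35 and 0.46 over all 9336 tested rows. The fold change had 0.34 and 0.39, against -0.02 and 0.02. That relation came mainly with depleted library 2: its fold change against the present libraries had 0.47 and 0.48, and that of depleted library 1 had 0.10 and 0.15. Over all tested rows depleted library 2 had 0.07 and 0.15 and depleted library 1 had -0.11 and -0.12, so library 2 was the higher there too. These are correlations across genes measured in the same 4 libraries, and genes are not independent replicates. Of the 37 genes with shorter models 16 were called lower (43.2%) and 1 higher, against 33.2% and 15.1% of all tested rows of that length. Of the 34 longer ones 5 were called lower (14.7%) and none higher, against 26.9% and 10.1%. Large subunits such as Polr1a, Polr3a, Polr3b, Taf1, Taf2, Med13 and Med14, none of them called, are in the longer class. The small shared polymerase subunits are in the shorter one. The 5 longer genes called lower were Polr1b, Polr3g, Polr3k, Taf5l and Gtf2h3. The part of model length in the difference between these groups of subunits was not tested.

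**Figure D3:**
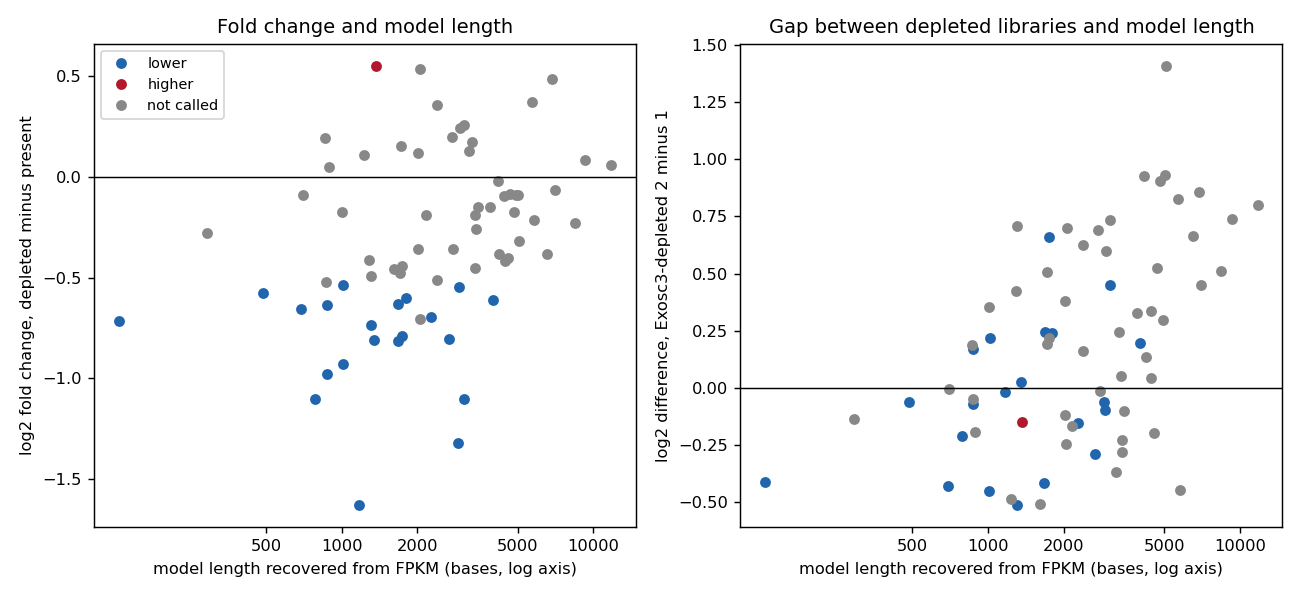
Left, log2 fold change against the model length recovered from the table (log axis) for the 71 tested genes. Right, the log2 difference between the depleted libraries (2 minus 1) against the same length; blue genes were called lower, red higher and grey neither. Genes called lower sit mostly at short lengths, and most long models have a gap above 0.

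The calls were few when a present library was left out and many when a depleted one was. This held for the machinery genes and over all tested rows alike. In each such fit the lone library was assumed to vary like the pair that remained. Gtf2h5, Taf5l and Polr2h passed, in the same direction, in each of the 18 alternatives, and none of the other 19 called genes did so. No called gene turned its direction. Polr1b, Polr2d, Polr2i, Polr3c, Polr3k, Taf11, Taf12 and Gtf2h3 passed in the deposited values and under none of the other 3 scalings. Taf1a passed as higher after median-of-ratios scaling (adjusted p = 0.0483) and Gtf2f1 after quantile normalization (adjusted p = 0.0468). Gtf2a2 passed under all 4 scalings and lost its call without Exosc3-present 1 (adjusted p = 0.0664) or 2 (adjusted p = 0.0848). Med22 passed under all 4 scalings and not without Exosc3-present 1 (adjusted p = 0.302) or 2 (adjusted p = 0.449).

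**Figure D4:**
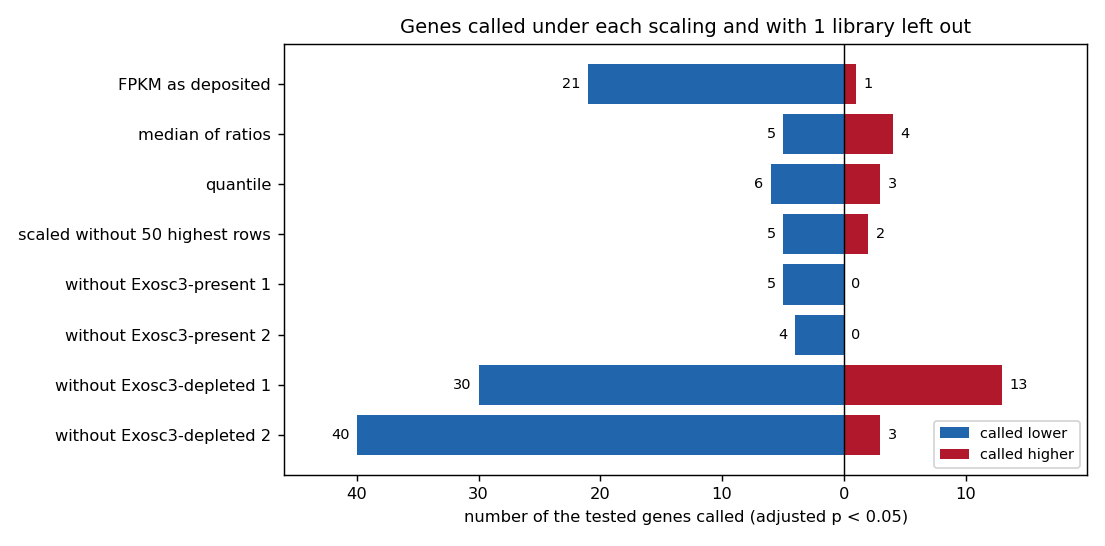
Number of the 71 tested genes called lower (blue, to the left) and higher (red, to the right) at an adjusted p under 0.05 as deposited, under 3 other scalings and with each library left out. The deposited values give 21 lower and 1 higher, the other scalings 5 or 6 lower and 2 to 4 higher.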

How the data were processed

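Total RNA of mouse embryonic stem cells was depleted of ribosomal RNA and made into stranded, paired-end libraries, per the labels' protocols. The authors deposited 1 table of FPKM values for 22883 rows and 4 libraries, per the file headers. Bowtie2, STAR, Picard, bedtools, edgeR and mm9 appear in the submitters' processing notes with neither version nor role, and how FPKM was computed is not given in the sources used here.

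Rows with a mean of at least 0.5 FPKM (9336) were tested, Exosc3-depleted against Exosc3-present and without covariates, on log2(FPKM + 0.5). The tool was limma 3.58.1 under R 4.3.3, fitted with a trend in intensity. Two-sided p-values were adjusted over all tested rows by the Benjamini-Hochberg method, and adjusted values under 0.05 count as called. Log2 fold changes are on this scale and understate the change of low genes, while N-fold values are ratios of mean FPKM. Fragment counts, model lengths and library totals were recovered from the spacing of the FPKM values (all 15471 rows above 0 came out whole within 0.004 of a fragment) and did not enter the main test. The script was tested on simulated data.

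The machinery genes, complexes and partner lists were chosen with earlier results of these data known. Genes named with values are, in each complex, the 3 called members with the smallest p, any called member against the majority, the largest fold change and the highest mean, plus paralogue pairs. Other genes described were chosen after their values were seen, to cover the remaining called members, the catalytic subunits and genes near the threshold. Overlaps of exons came from GENCODE M21 (GRCm38), matched by symbol for 73 of 73 genes; 18 of them overlap an exon on the opposite strand. Whether the authors' counting used strand is not given in the sources used here. Alternatives covered the pseudocount, filter, scaling, trend, prior, limma-voom on the recovered fragments, threshold, replicate block and each library left out.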

Additional observations from a re-analysis of the deposited data

How the results depend on the processing

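Precision is limited by 2 libraries a group and, for low genes, by depth. A tested row had a median of 376 to 777 fragments per library, while Gtf2ird2 had 61 to 121, Polr3f 88 to 264 and Taf13 90 to 260. The cause of the changes below was not tested. No gene had several rows, so the alternative of a gene's next highest row was not run. The replicate numbers are not said to mark a batch. Deviations from the group means of same-numbered libraries correlated at r = 0.24 across rows in 2 pairs, and with the replicate block 25 machinery genes were lower and 2 higher, against 1431 higher and 3468 lower of all rows.

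Machinery genes called lower numbered 5 after median-of-ratios scaling, 6 after quantile normalization, 5 after scaling that leaves out the 50 highest rows and 6 at an adjusted p under 0.01. Those called higher numbered 2 with a mean FPKM of at least 2, 4, 3 and 2 under the 3 scalings, 2 without an intensity trend, 0 with limma-voom, 0 at an adjusted p under 0.01 and 2 at one under 0.1. Over all rows the calls lower were 1589, 1782 and 1330 under the 3 scalings and 1457 at an adjusted p under 0.01, and the calls higher were 667 with a mean FPKM of at least 2 and 744 at an adjusted p under 0.01. Partner genes called lower were 8 as reported, 5 without a filter, 2, 2 and 1 under the 3 scalings and 1 at an adjusted p under 0.01. With each library left out the ranges were 4 to 40 (machinery genes lower), 0 to 13 (higher), 1082 to 4715 (all rows lower), 668 to 2183 (all rows higher), 0 to 18 (partners lower) and 1 to 7 (partners higher).

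Without a filter, which adds low rows to the median row, the medians relative to it were -0.32 over all machinery genes, -0.14 in Mediator, -0.24 in polymerase III and -0.43 in TFIIH. With a mean FPKM of at least 2 they were -0.034 over all machinery genes, 0.15 in Mediator and -0.14 in TFIIH, and filtering by the Exosc3-present mean alone gave -0.0396, 0.14 and -0.16. Quantile normalization gave 0.17 in Mediator and -0.16 in TFIIH. With each library left out they ranged from -0.084 to -0.0592 over all machinery genes, 0.0492 to 0.13 in Mediator, -0.73 to -0.19 in the subunits shared by all polymerases, -0.29 to -0.07 in polymerase II, -0.13 to 0.0598 in polymerase III, -0.23 to 0.12 in TFIID and -0.52 to -0.20 in TFIIH. The difference in the log2 ratio of Gtf2i to Gtf2ird2 was -0.18 with a pseudocount of 0.1, and -0.12, 0.0611 and -0.10 under the 3 scalings. That of Med13 to Med13l was -0.23 after quantile normalization.

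Of the 71 tested genes 17 changed the sign of their fold change under median-of-ratios scaling, 15 after quantile normalization, 17 without the 50 highest rows, 3 and 4 without Exosc3-present 1 and 2, and 14 and 7 without Exosc3-depleted 1 and 2, and none of these was called in the deposited values. Values follow for only some of them. Under median-of-ratios scaling the log2 fold changes were 0.0551 for Med24, 0.12 for Gtf2ird1, 0.014 for Gtf2ird2, 0.10 for Polr2a, 0.24 for Polr1a, 0.23 for Polr1d, 0.22 for Polr3a and 0.13 for Polr3b. After quantile normalization they were 0.0408 for Med24, 0.12 for Gtf2ird1, 0.17 for Polr2a, 0.25 for Polr1a, 0.31 for Polr1d, 0.23 for Polr3a and 0.16 for Polr3b. Without the 50 highest rows they were 0.0777 for Med24, 0.15 for Gtf2ird1, 0.022 for Gtf2ird2, 0.13 for Polr2a, 0.26 for Polr1a, 0.25 for Polr1d, 0.24 for Polr3a and 0.15 for Polr3b. With each library left out, the lowest and highest were -0.0347 and 0.376 for Taf7, -0.34 and 0.4574 for Med13, -0.29 and 0.4498 for Med13l, -0.29 and 0.16 for Polr1a, -0.3468 and 0.18 for Polr3a, -0.6276 and 0.28 for Polr3b, -1.023 and 0.39 for Taf1, -0.4354 and 0.0091 for Polr2a and -0.15 and 0.5411 for Gtf2h1. Exosc3-depleted 1 or 2 was the library left out at both ends, other than for Taf7, where Exosc3-present 1 and 2 were.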
